A study of Homo sapiens with 12 samples.

Results

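The genes described here are the 10 transcripts of polyamine synthesis, breakdown and control: ODC1, AMD1, SRM, SMS, SAT1, SMOX, OAZ1, OAZ2, AZIN1 and DHPS. They were chosen by name, as the rows of the deposited gene count table whose Ensembl identifier, with its version removed, carries 1 of these symbols. All 10 were found among the 60483 gene rows, and all 10 passed the filter on low counts that left 14412 genes for testing. The study used REC1, an established human mantle cell lymphoma line, a B-cell tumour. The cells were exposed to DMSO, the solvent control, to ibrutinib, an inhibitor of the kinase BTK, to SPX5551, which the series title presents as an inhibitor of the chemokine receptor CXCR4, or to ibrutinib together with SPX5551, called the combination below. Poly(A)-selected RNA was sequenced after 4, 8 and 12 h, with 1 library for each treatment and time, 12 in all. Doses are not given in the labels, all 4 groups share the same cell line, and the labels do not say whether libraries came from separate cultures.

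Polyamines are small positively charged molecules that dividing cells need for translation and growth. Ornithine decarboxylase, ODC1, makes putrescine from ornithine, the step that usually limits the pathway. AMD1 decarboxylates S-adenosylmethionine and so supplies the aminopropyl groups with which SRM turns putrescine into spermidine and SMS turns spermidine into spermine. SAT1 acetylates spermidine and spermine for export or breakdown, and SMOX oxidises spermine back to spermidine. The antizymes OAZ1 and OAZ2 bind ODC1 and deliver it to the proteasome, and AZIN1, a relative of ODC1 without its activity, binds antizyme and frees ODC1. DHPS moves part of spermidine onto the translation factor EIF5A, which yields hypusine after a further step by DOHH. ODC1 is a textbook target of the transcription factor MYC, and polyamine synthesis is high in MYC-driven lymphomas.

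The labels hold a conflict that bears on every treatment difference below. The column headers used here follow the sample titles, with ibrutinib shortened to ibr and SPX5551 written pol5551 in both titles and headers, but the description field of every sample points to a column that belongs to a different treatment. Had the descriptions been followed, every column would carry another treatment, and most changes below would turn round, with the values given in the closing section. The labels also call the molecule genomic DNA although the protocol describes RNA. Library totals ran from 19336303 to 28934030 counts, and the 6 B-cell markers summed to between 2404 and 3470 CPM (counts scaled to a library total of 1000000) in all libraries, while 5 T-cell markers summed to at most 10.6 CPM and 5 myeloid markers to at most 2.07 CPM, with FCGR3A at 0 throughout. The 5 stromal and epithelial markers summed to 42.2 to 93.5 CPM, nearly all from PDGFRB (15.4 to 49.1 CPM) and KRT18 (21.6 to 38.7 CPM), and their part in the results was not tested. CCND1, which defines mantle cell lymphoma, was high in every library, and SOX11 lay between 4.32 and 7.33 CPM. Levels also followed transcript length to a degree that differed between libraries, as shown by the Spearman correlation of a library's deviation from the mean with exonic length. At 4, 8 and 12 h it was -0.15, -0.26 and 0.33 in DMSO and -0.03, -0.27 and 0.22 in the combination, changing sign within both. It was 0.15, 0.37 and 0.27 with ibrutinib and -0.18, -0.36 and -0.34 with SPX5551.

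Sequences that bear on how these transcripts are read are shown first. The antizymes are made only when ribosomes slip by 1 base at the end of a short first frame, and polyamines promote that slip. Of the matches to TCCTGA in the GENCODE 29 transcripts, the OAZ1 and OAZ2 pair most alike was taken. It was found in 7 OAZ1 transcripts and 5 OAZ2 transcripts, and it followed an upstream start codon in frame, with no stop between, in 3 and 2 of them. The 30 bases around it are printed below, with the last sense codon and the stop codon of the first frame, as read in those 3 and 2 transcripts, in capitals.
OAZ1: cctcggtggtgcTCCTGAtgcccctcaccc
OAZ2: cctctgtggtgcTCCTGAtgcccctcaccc
The 29 shared bases include the whole capital part, and the single substitution is G5T, OAZ1 base first, counted from 1 at the 5′ end of the stretch. AMD1 carries an upstream reading frame of 6 codons in its leader, through which polyamines are known to hold back translation. It was found in 4 AMD1 transcripts and is printed with its start and stop codons in capitals.
AMD1 upstream frame: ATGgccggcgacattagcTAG
These counts measure transcript amounts and do not measure slippage, translation or protein.

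Promoters were read from the RefSeq table of the build GRCh38.p14, as windows of 300 bases from 250 before to 50 after each annotated start. Of the 10 genes, 8 had a window, and AZIN1 and SMOX had none. The windows were searched for CACGTG, the E-box that MYC and related factors can bind, which reads the same on both strands. ODC1 and SRM held it in 1 window each. Among all genes with a window 8.77% held it, and among all 35116 windows 7.26%. The pair of stretches is shown because both genes fell in the combination, with the motif in capitals. The ODC1 stretch of 56 bases ends at the annotated start and holds the match at -29, and the other match of that window begins at base 6 after the start.
ODC1, chr2:10448013-10448068, minus strand: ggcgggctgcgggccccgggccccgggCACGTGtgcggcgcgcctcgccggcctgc
SRM, chr1:11060185-11060244, minus strand: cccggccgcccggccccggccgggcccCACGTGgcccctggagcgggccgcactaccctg
The ODC1 stretch lies inside the gene but in no GENCODE 29 exon, and the SRM stretch, with its match at -199, lies outside the gene. The windows of AMD1, SMS, SAT1, OAZ1, OAZ2 and DHPS did not hold these letters. A match describes the sequence and not a bound site.

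Per kilobase of exon, the ODC1 and OAZ1 transcripts were the most abundant of the 10. The median over the 12 libraries was 313 CPM per kb for ODC1 and 307 CPM per kb for OAZ1, and the ranges of these 2 overlapped. SRM followed at 139.8 CPM per kb, SAT1 at 69.8, AZIN1 at 53.4, AMD1 at 26.5, SMS at 24.4, DHPS at 16.3, OAZ2 at 5.34 and SMOX at 1.37 CPM per kb. Neighbours in this order overlapped for SAT1 and AZIN1, whose ranges were 54.3 to 79.7 and 44.4 to 66.5 CPM per kb, and for AMD1 and SMS, at 18.6 to 39.6 and 18.7 to 32.5 CPM per kb. The antizymes thus differed widely in level, and the spermine oxidase SMOX rested on only 46 to 218 counts per library. DHPS lies opposite WDR83 with overlapping exons, and WDR83 held 3349 counts over the 12 libraries against 13058 for DHPS. Whether counting used the strand of the directional kit is not given in the sources used here, so reads of these overlapping genes may not be fully told apart.

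**Figure D1:**
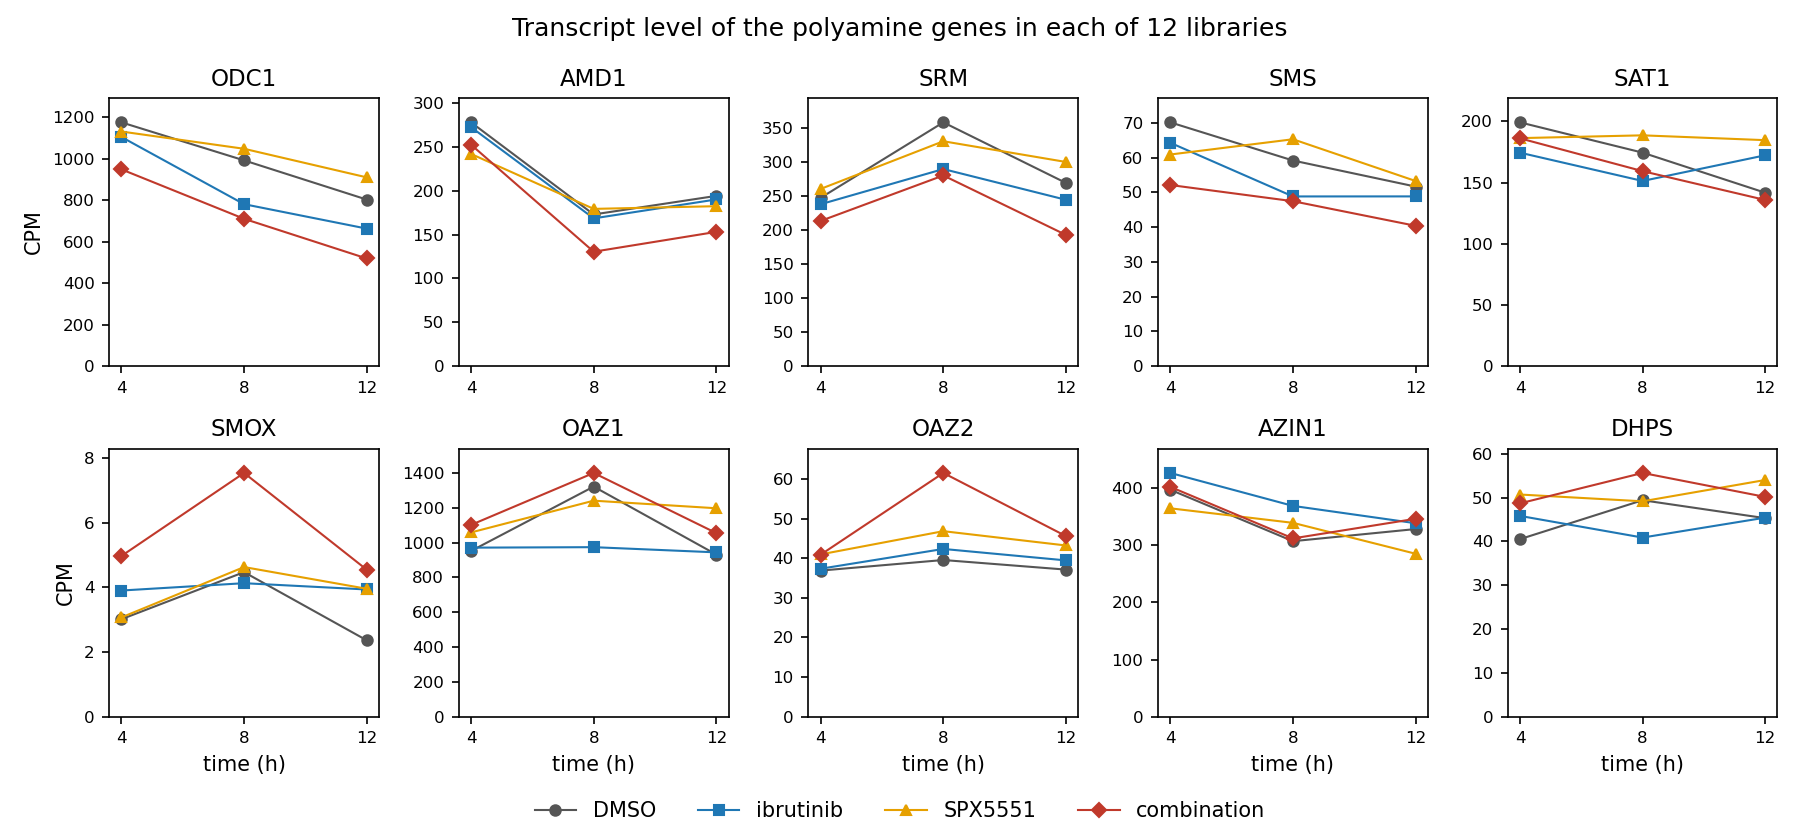
CPM of each of the 10 transcripts (vertical axes, from 0) at 4, 8 and 12 h (horizontal axes), with 1 point per library and 1 line per treatment. The combination line of ODC1 lies lowest at each time, from 949 to 519 CPM, and that of SMOX highest, from 4.54 to 7.53 CPM.

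The combination against DMSO asks what both drugs together did to the pathway. The transcripts of the 4 synthesis enzymes ODC1, AMD1, SRM and SMS fell, and SMOX, the enzyme that turns spermine back into spermidine, rose. SAT1, both antizymes, AZIN1 and DHPS did not pass the test. Thus 5 of 10 passed, with 4 lower and 1 higher, where 9.57% of all tested genes passed, 5.41% lower and 4.16% higher. The median log2 fold change was -0.11 over the 10 transcripts and 0.02 over all tested genes. Fold changes are log2 differences from edgeR's quasi-likelihood test over all 12 libraries with a term for time, the 3 times serve as the replicates of a treatment (n = 3), and adjusted p-values are Benjamini-Hochberg over all tested genes, called at 0.05. They measure only the spread between these libraries. In bulk RNA, fewer cells of a kind and less RNA per cell cannot be told apart.

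ODC1 (chromosome 2, 10439968 to 10448504, minus strand, hg38) was at 1176, 992 and 803 CPM in DMSO at 4, 8 and 12 h. In the combination it was at 949, 710 and 519 CPM. The combination library was below the DMSO library at each time, as in 23.7% of all tested genes, and the groups overlapped because DMSO at 12 h was below the combination at 4 h. The fold change was -0.55 ± 0.11 (SE, adjusted p = 0.00585). With 1 library against 1, the log2 differences were -0.39 at 4 h, -0.54 at 8 h and -0.73 at 12 h, and their 95% counting intervals, which cover counting error only, did not touch one another. Without the 8 h libraries the fold change was -0.57 and its adjusted p was 0.0570. Without the time term it was -0.52 with an adjusted p of 0.477.

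AMD1, which supplies the aminopropyl groups (chromosome 6, 110874770 to 110895713, plus strand), was at 278, 173 and 194 CPM in DMSO. The combination gave 252.5, 130.4 and 153 CPM. Both groups were highest at 4 h and overlapped, and the fold change was -0.37 ± 0.10 (SE, adjusted p = 0.0239). The AMD1 call was lost on leaving out the 4 h or 8 h DMSO library, with adjusted p-values of 0.0659 and 0.0632, or the 12 h or 8 h combination library, with 0.0684 and 0.0747. Leaving out the 4 h, 8 h or 12 h time point gave 0.0617, 0.146 and 0.0882.

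SRM, spermidine synthase (chromosome 1, 11054584 to 11060024, minus strand), was at 248, 359 and 269.7 CPM in DMSO. In the combination it was at 214, 281 and 193 CPM. SRM was highest at 8 h in every treatment, and the combination was the lowest of the 4 libraries at each time. Its fold change was -0.43 ± 0.10 (SE, adjusted p = 0.0137), and the log2 differences were -0.30, -0.42 and -0.58 at 4, 8 and 12 h. Leaving out the 8 h DMSO library gave an adjusted p of 0.0701 and leaving out the 12 h combination library 0.0557. Without the 4 h, 8 h or 12 h time point it was 0.0889, 0.0735 or 0.0511.

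SMS, spermine synthase (chromosome X, 21940573 to 21994835, plus strand), was at 70.2, 59.2 and 51.7 CPM in DMSO. The combination gave 52.15, 47.5 and 40.4 CPM. The 4 h combination library was close to the 12 h DMSO library, and the groups overlapped, while at each time the combination was the lowest of the 4 treatments. SMS fell by 0.45 on the log2 scale (SE 0.10, adjusted p = 0.0111), and the call was lost without the 4 h DMSO library (adjusted p = 0.0525) or without the 4 h time point (0.0970). ODC1, SRM and SMS were thus the lowest in the combination at all 3 times, a pattern that 7.55% of all tested genes shared on the scaled log2 CPM.

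SMOX (chromosome 20, 4120980 to 4187747, plus strand) was at 3.01, 4.47 and 2.36 CPM in DMSO. In the combination it was at 4.97, 7.53 and 4.54 CPM. The combination library was the highest of the 4 at each time, as for 7.47% of all tested genes. The fold change was 0.71 ± 0.19 (SE, adjusted p = 0.0282), and the log2 differences of 0.63, 0.68 and 0.82 had wide counting intervals, from 0.18 to 1.12 at 4 h. The SMOX call was lost without any of 5 libraries, the 4, 8 or 12 h DMSO library (adjusted p = 0.0856, 0.0608 and 0.141) and the 4 or 8 h combination library (0.0780 and 0.145). It was also lost without the 4 h, 8 h or 12 h time point, at 0.135, 0.158 and 0.0690.

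**Figure D2:**
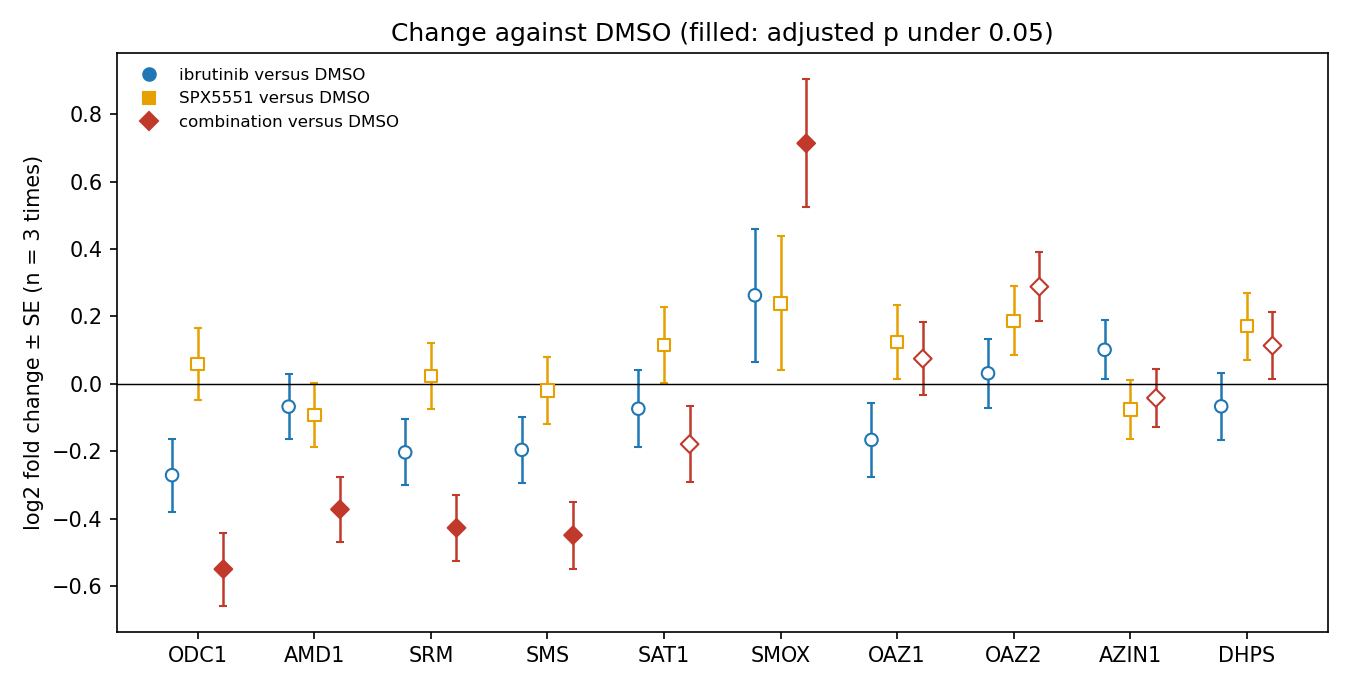
Log2 fold changes with SE of the 10 transcripts for ibrutinib, SPX5551 and the combination, each against DMSO, from edgeR fits with the 3 times as replicates. Filled points have an adjusted p under 0.05: in the combination ODC1, AMD1, SRM and SMS are filled and negative, and SMOX is filled and positive.

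SAT1, the acetyltransferase of the breakdown arm, was at 199, 174 and 142 CPM in DMSO and at 186, 159 and 136 CPM in the combination. The groups overlapped and the fold change was -0.18 ± 0.11 (SE, adjusted p = 0.364). OAZ1 (chromosome 19, 2269509 to 2273490, plus strand) was at 951.5, 1321 and 931 CPM in DMSO and at 1101, 1399.6 and 1054 CPM in the combination, with a fold change of 0.07 (adjusted p = 0.730). Both groups were highest at 8 h and overlapped. OAZ2 (chromosome 15, 64687573 to 64703281, minus strand) was at 36.9, 39.6 and 37.1 CPM in DMSO and at 40.9, 61.55 and 45.6 CPM in the combination. On the TMM-scaled log2 CPM its DMSO and combination libraries did not overlap, all 3 combination libraries being higher, as in 6.35% of all tested genes. SMOX libraries did not overlap in plain CPM but did on the TMM scale, and the libraries of the other members overlapped on that scale. The OAZ2 fold change of 0.29 ± 0.10 (SE) missed the threshold at an adjusted p of 0.0894. Its 8 h library stood highest, at a log2 difference of 0.57 against 0.07 at 4 h and 0.20 at 12 h. OAZ2 passed in 3 of 24 other settings, when only library size was scaled (0.37, adjusted p = 0.0279), with the libraries of both groups only (0.27, 0.0495) and without the ibrutinib library of 8 h and the SPX5551 library of 12 h (0.27, 0.0495). Without the 8 h combination library its fold change was 0.12 and without the 8 h time point 0.11.

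AZIN1, the antizyme inhibitor, was at 398, 307 and 329 CPM in DMSO and at 403, 312 and 347 CPM in the combination, a fold change, after TMM scaling, of -0.04 (SE 0.09, adjusted p = 0.815). DHPS, the first hypusine enzyme, was at 40.5, 49.4 and 45.3 CPM in DMSO and at 48.7, 55.6 and 50.1 CPM in the combination, a fold change of 0.11 (SE 0.10, adjusted p = 0.531). Neither gene's groups stood apart.

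With ODC1 lower and OAZ1 not changed beyond the spread, the count ratio of ODC1 to OAZ1 was lowest in the combination at each time. In DMSO the ratio of ODC1 to OAZ1 counts was 1.24, 0.751 and 0.863 at 4, 8 and 12 h. It was 1.14, 0.802 and 0.703 with ibrutinib, and 1.07, 0.845 and 0.761 with SPX5551. In the combination it was 0.862, 0.507 and 0.492. The 3 other treatments differed among themselves by less than each differed from the combination at 8 h and 12 h. The ODC1 to AZIN1 ratio was 2.96, 3.23 and 2.44 in DMSO and 2.36, 2.27 and 1.496 in the combination. It was 2.59, 2.11 and 1.96 with ibrutinib and 3.10, 3.09 and 3.19 with SPX5551. At 8 h ibrutinib, and not the combination, was thus the lowest in this ratio. These ratios rest on 1 library each and carry no test of their own.

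**Figure D3:**
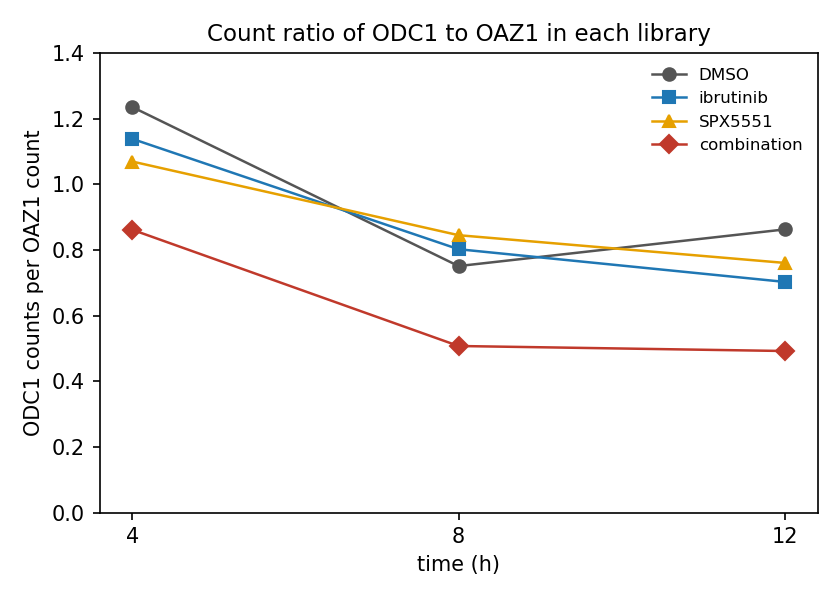
Counts of ODC1 per count of OAZ1 (vertical axis, from 0) at 4, 8 and 12 h for each treatment, 1 library per point. The combination is lowest at each time, at 0.862, 0.507 and 0.492.

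Each drug alone against DMSO asks which part either drug can produce by itself. None of the 10 transcripts passed with ibrutinib alone, where 0.104% of all tested genes passed, or with SPX5551 alone, where 0% passed. In those fits 1588 and 1200 genes had an unadjusted p under 0.05, and DESeq2 called 0 genes for SPX5551. Under ibrutinib, ODC1 was at 1105, 781 and 663 CPM. It lay below DMSO at each time, as did 15.3% of all tested genes, by -0.15, -0.39 and -0.28 on the log2 scale, and the fold change was -0.27 ± 0.11 (SE, adjusted p = 0.452, 95% interval -0.50 to -0.04). SRM was at 238, 290.2 and 245 CPM with ibrutinib and SMS at 64.3, 48.9 and 48.9 CPM. Their fold changes were -0.20 each (adjusted p = 0.456 and 0.459), also with all 3 times below DMSO. AMD1 differed least among the synthesis enzymes, at 273, 168 and 190 CPM and a fold change of -0.07 (adjusted p = 0.783).

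With SPX5551, ODC1 was at 1131, 1048 and 910 CPM, below DMSO at 4 h and above it later, and the fold change was 0.06 ± 0.11 (SE, adjusted p = 0.892, 95% interval -0.17 to 0.29). SRM was at 261, 331 and 300.6 CPM, SMS at 60.9, 65.3 and 53.3 CPM and AMD1 at 242, 179 and 182 CPM, and the direction against DMSO differed between times for each of them. Among the controllers, OAZ1 was at 1058, 1240.3 and 1197 CPM with SPX5551 and at 970.5, 973 and 943 CPM with ibrutinib. The 8 h ibrutinib library, which had the strongest length trend, lay below DMSO in OAZ1 by -0.48 on the log2 scale, against -0.03 and 0.01 at 4 h and 12 h. The part of transcript length in this difference was not tested. OAZ2 with SPX5551 was at 40.98, 46.8 and 43.2 CPM, above DMSO at each time as were 12.9% of all tested genes, with a fold change of 0.19 (adjusted p = 0.633). SAT1 was at 174, 151 and 172 CPM with ibrutinib and at 186, 189 and 185 CPM with SPX5551, so that both drugs alone lay above DMSO at 12 h and the combination did not. AZIN1 was at 427, 369 and 339 CPM with ibrutinib, above DMSO at 4 h, 8 h and 12 h, and at 365, 339.6 and 285 CPM with SPX5551, with fold changes of 0.10 (adjusted p = 0.626) and -0.08 (adjusted p = 0.806). DHPS was at 45.8, 40.9 and 45.4 CPM with ibrutinib and at 50.7, 49.1 and 54.0 CPM with SPX5551, where its fold change was 0.17 (adjusted p = 0.634). SMOX was at 3.07, 4.62 and 3.95 CPM with SPX5551, and only its 12 h library stood clear of DMSO, by 0.75 on the log2 scale, with a fold change over the 3 times of 0.24 (adjusted p = 0.734). With ibrutinib SMOX differed from DMSO by 0.31, -0.15 and 0.71 at 4, 8 and 12 h, a fold change of 0.26 (adjusted p = 0.575). At 12 h the combination lay above ibrutinib by only 0.11 and above SPX5551 by only 0.07, and the DMSO library held 46 SMOX counts.

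The combination against each drug alone asks what the second drug added. Against SPX5551 alone, ODC1, SRM and SMS fell and none rose, 3 of 10 where 7.24% of all tested genes passed and 3.97% were lower. ODC1 changed by -0.61 ± 0.11 (SE, adjusted p = 0.00506), with log2 differences of -0.28, -0.60 and -0.94 at 4, 8 and 12 h, where 20.1% of all tested genes were lower at each time. SRM changed by -0.45 (SE 0.10, adjusted p = 0.0137), and its difference at 12 h, -0.77, was the largest of its 3 times. SMS changed by -0.43 (SE 0.10, adjusted p = 0.0177). The SRM call was lost without the 12 h combination library (0.0667) or without the 4 h or 12 h time point (0.0789 and 0.128). The SMS call was lost without the 8 h SPX5551 library (0.0811), the 12 h combination library (0.0656) or the 4 h, 8 h or 12 h time point (0.0630, 0.0632 and 0.0746). AMD1 missed the threshold at -0.28 (adjusted p = 0.0808), and its 4 h libraries differed by 0.04. It passed with length and GC trends removed (-0.35, adjusted p = 0.0127), with DESeq2 (0.0316), without the 4 h SPX5551 library (0.0293) and without the 4 h combination library (0.0394).

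Against ibrutinib alone none of the 10 passed, where 5.49% of all tested genes did. AMD1 came nearest at -0.30 ± 0.10 (SE, adjusted p = 0.0718), with differences of -0.13, -0.39 and -0.40. It passed with DESeq2 (0.0229), without the filter (0.0380), and without the 12 h SPX5551 (0.0458), 4 h SPX5551 (0.0386) or 4 h combination library (0.0497). Of 24 other settings, ODC1 and SMS passed in 2 each (lowest adjusted p = 0.0288 and 0.0323), and SRM and OAZ2 in 1 each (0.00184 and 0.0429). ODC1 lay lower at each time, as did 21.9% of all tested genes, by -0.24, -0.16 and -0.45, and its fold change was -0.28 (adjusted p = 0.134). SMOX was at 3.90, 4.125 and 3.93 CPM with ibrutinib, and its fold change of 0.45 (adjusted p = 0.152) came mainly from 8 h, at 0.83 against 0.32 and 0.11. The comparisons above share their DMSO or combination libraries, so that their values are not independent of one another.

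**Figure D4:**
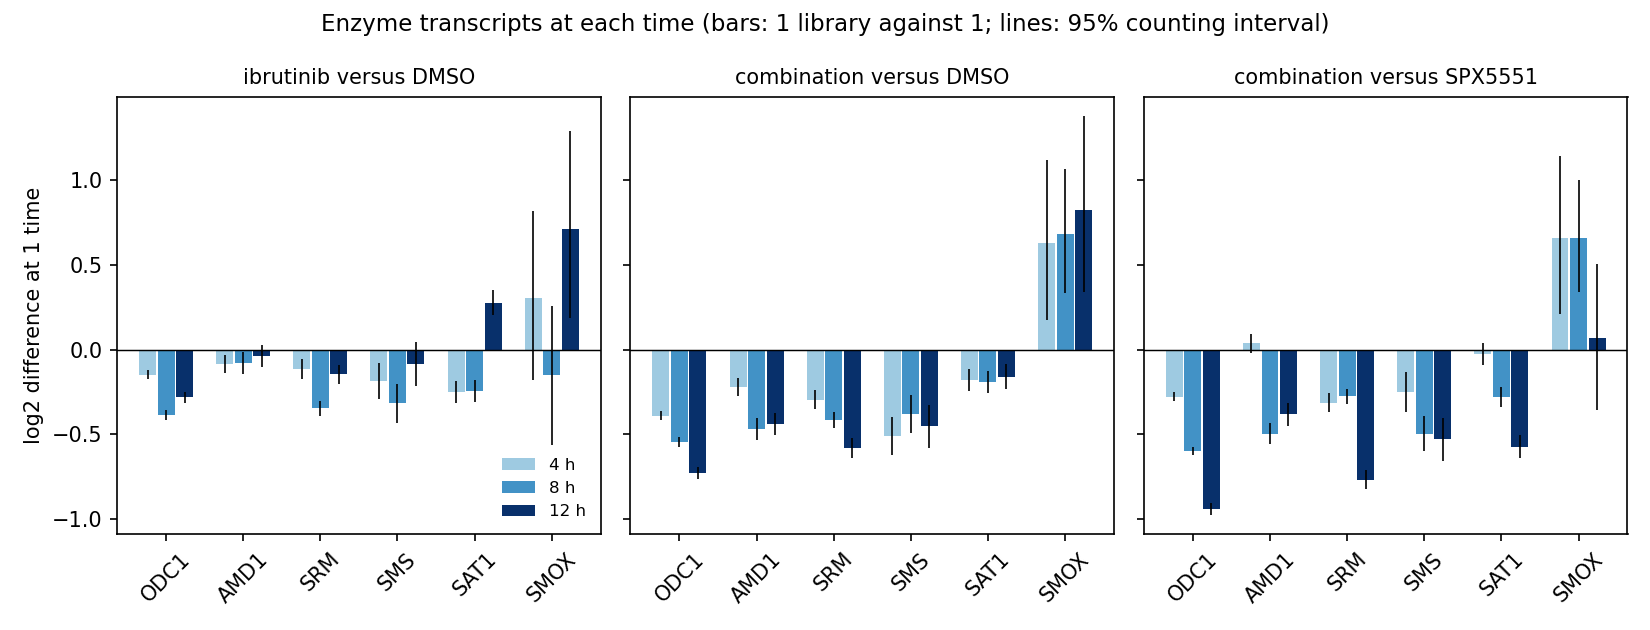
Log2 difference between 2 libraries at 1 time (vertical axis) for ODC1, AMD1, SRM, SMS, SAT1 and SMOX in 3 comparisons, with bars for 4, 8 and 12 h and lines for the 95% counting interval. ODC1 bars are negative at all 3 times in each comparison, reaching -0.94 at 12 h against SPX5551.

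The 12 libraries also form a square of both drugs, with 6 libraries exposed to ibrutinib and 6 not. Across that contrast ODC1, SRM and SMS fell, 3 of 10, where 13.7% of all tested genes passed and 6.58% were lower. ODC1 was lower with ibrutinib exposure by -0.44 ± 0.09 (SE, adjusted p = 0.00748), SRM by -0.33 ± 0.07 (adjusted p = 0.0136) and SMS by -0.31 ± 0.07 (adjusted p = 0.0152). For ODC1 and SRM both exposed libraries were below both unexposed libraries at each of the 3 times, a pattern found in 4.08% of all tested genes. SMOX was higher by 0.38 (adjusted p = 0.0671) and AMD1 lower by -0.17 (adjusted p = 0.103), and both missed the threshold. Without the 8 h time point the adjusted p of ODC1, SRM and SMS was 0.0939, 0.111 and 0.126, and without 12 h it was 0.0552, 0.0838 and 0.0838. The SMS call was also lost on leaving out the ibrutinib library of 8 h and the SPX5551 library of 12 h together, an alternative taken from earlier results of these data (-0.26, adjusted p = 0.0520).

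Exposure to SPX5551, across the same square, passed for none of the 10, where 7.01% of all tested genes passed. OAZ2 came nearest at 0.22 ± 0.07 (SE, adjusted p = 0.0622), and it passed with DESeq2 (0.0497), with library size alone (0.0458) and with length and GC trends removed (0.0155). AMD1 was at -0.20 (adjusted p = 0.0894) and passed with DESeq2 (0.0450) and without the 8 h SPX5551 library (0.0487). SRM, at -0.10, passed with length and GC trends removed (-0.25, adjusted p = 0.0462). In the test of whether the drugs together differed from the sum of each alone, none of the 10 passed and 0% of all tested genes did, with 845 genes at an unadjusted p under 0.05 and 2 called by DESeq2. That interaction was -0.34 for ODC1 (SE 0.15, adjusted p = 0.842, 95% interval -0.66 to -0.01). Nor did the ibrutinib contrast differ between times for any of the 10, where 0% of all tested genes passed, 252 had an unadjusted p under 0.05 and DESeq2 called 2. The fitted ibrutinib difference of ODC1 was -0.21, -0.50 and -0.61 at 4, 8 and 12 h, an order that this test did not separate from the spread.

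Some of these transcripts also differed between times, in a test with the 4 treatments as the replicates of a time. Culture time cannot be told apart from anything else that the 4 libraries of a time shared. From 4 h to 12 h, ODC1, AMD1, SMS, AZIN1 and SAT1 fell and none rose, 5 of 10 where 35.9% of all tested genes passed and 17.5% were lower. ODC1 fell by 0.71 on the log2 scale (SE 0.09, adjusted p = 7.59e-05) and AMD1 by 0.63 (SE 0.08, adjusted p = 6.71e-05). SMS changed by -0.44 (adjusted p = 0.00117), AZIN1 by -0.38 (adjusted p = 0.00131) and SAT1 by -0.33 (adjusted p = 0.0175). All 5 were lower at 12 h than at 4 h in each of the 4 treatments, as were 23.5% of all tested genes. SAT1 missed the threshold without the 12 h or 4 h DMSO library (0.0731 and 0.0707), without the 12 h or 4 h combination library (0.0777 and 0.0715) and with library size alone (0.0530). SRM did not follow, at -0.03 (adjusted p = 0.818), and neither did OAZ1, OAZ2, SMOX or DHPS.

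After the mean of each time was taken off the log2 CPM, the 4 synthesis transcripts varied together over the 12 libraries. Pearson correlations ran from 0.73 to 0.96 in the 6 pairs of ODC1, SRM, SMS and AMD1. SAT1, of the breakdown arm, shared this, at 0.77 with ODC1, 0.76 with SRM, 0.76 with SMS and 0.60 with AMD1. With the time means left in, the 6 synthesis pairs ran from -0.06 (SRM and AMD1) to 0.96 (ODC1 and SMS). With the time means removed, all 45 pairs of the 10 transcripts ran from -0.91 (AZIN1 and DHPS) to 0.96 (ODC1 and SRM). OAZ1 and AZIN1 were at -0.88, and OAZ1 and DHPS at 0.93. The points share libraries, scaling and the length trends given above. The genes most like ODC1 among 10112 genes with a mean log2 CPM of at least 2 were VDAC1 (r = 0.990), SUMO3 (0.985), YRDC (0.984), EIF2S1 (0.981) and SLC43A3 (0.981), over 12 libraries. With the mean of each time removed they were POLR1C (0.989), MRTO4 (0.984), SUMO3 (0.983), VDAC1 (0.983) and YRDC (0.979). POLR1C is a subunit of RNA polymerases I and III, and MRTO4 takes part in ribosome assembly. For SAT1 the most alike were EIF3E (0.959), RSL24D1 (0.958) and ATP1B3 (0.951), a different set.

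Other genes of the pathway were described as a list of 28, of which ARG1, SLC7A2 and SLC12A8 were too low to test. In the combination against DMSO, 2 of the 25 tested rose, 6 fell and 17 did not pass, where 4.16% of all tested genes rose and 5.41% fell. EIF5A, the protein that receives hypusine, was at 897, 1015 and 808 CPM in DMSO and at 729, 822 and 565 CPM in the combination. It fell by 0.45 on the log2 scale (SE 0.10, adjusted p = 0.00932), while its enzymes DHPS and DOHH did not pass, DOHH at 0.20 (adjusted p = 0.486). The EIF5A call was lost without the 4 h time point (0.0964).

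On the side of precursors, MAT2A, which makes S-adenosylmethionine, was at 567, 342 and 469.7 CPM in DMSO and at 417, 253 and 375 CPM in the combination. It changed by -0.48 ± 0.09 (SE, adjusted p = 0.00333), and missed the threshold without the 4 h time point (0.0816). MTAP, which salvages methionine from the by-product of both aminopropyl transfers, changed by -0.36 (adjusted p = 0.0377). The arginine carrier SLC7A1 changed by -0.49 (adjusted p = 0.0226) and the large neutral amino acid carrier SLC7A5 by -0.36 (adjusted p = 0.0450). AGMAT, annotated as agmatinase, changed by -0.61 (adjusted p = 0.0113) at levels of 5.63 to 9.59 CPM.

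The 2 that rose were OAT, ornithine aminotransferase, which draws ornithine away from ODC1, and ATP13A2, a lysosomal polyamine exporter. OAT was at 44.5, 40.1 and 42.8 CPM in DMSO and at 61.6, 58.6 and 57.8 CPM in the combination (0.40 ± 0.08, SE, adjusted p = 0.00741). Its groups did not overlap in plain CPM. On the TMM-scaled log2 CPM, 6.35% of all tested genes had groups that did not overlap, with the combination higher. ATP13A2 was at 12.8, 16.7 and 14.8 CPM in DMSO and at 17.5, 20.98 and 24.9 CPM in the combination (0.43, adjusted p = 0.0239). OAT passed in 20 of 24 other settings, with adjusted p-values of up to 0.223. The settings that lost the OAT call included leaving out the 8 h DMSO library (0.0595). Of the other calls, ATP13A2, MTAP, SLC7A1, SLC7A5 and AGMAT were each lost without at least 2 single libraries, with adjusted p-values between 0.0509 (SLC7A5) and 0.164 (SLC7A5).

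Against ibrutinib alone, 4 of the 25 passed, where 5.49% of all tested genes did: MAT2A (-0.46), SLC7A1 (-0.58) and SLC7A5 (-0.40) fell and OAT (0.34) rose, with adjusted p-values of 0.0112, 0.0176, 0.0415 and 0.0280. Against SPX5551 alone, 4 of the 25 passed, where 7.24% of all tested genes did: EIF5A (-0.49), AGMAT (-0.52) and MAT2A (-0.36) fell and ATP13A2 (0.44) rose, with adjusted p-values of 0.00839, 0.0291, 0.0206 and 0.0254. With neither drug alone did any of the 25 pass against DMSO. With ibrutinib exposure 1 of the 25 rose (ATP13A2) and 2 fell (EIF5A and AGMAT), where 13.7% of all tested genes passed. With SPX5551 exposure 1 rose (OAT) and 4 fell (MAT2A, MTAP, SLC7A1 and SLC7A5), where 7.01% of all tested genes passed. Over time, 9 of the 25 passed, close to the 35.9% of all tested genes. The 7 that fell included SLC7A5 (-0.61, adjusted p = 2.10e-04) and the polyamine transporter ATP13A3 (-0.61, adjusted p = 7.34e-04), and MAT1A (1.46) and MRI1 (0.28) rose.

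**Figure D5:**
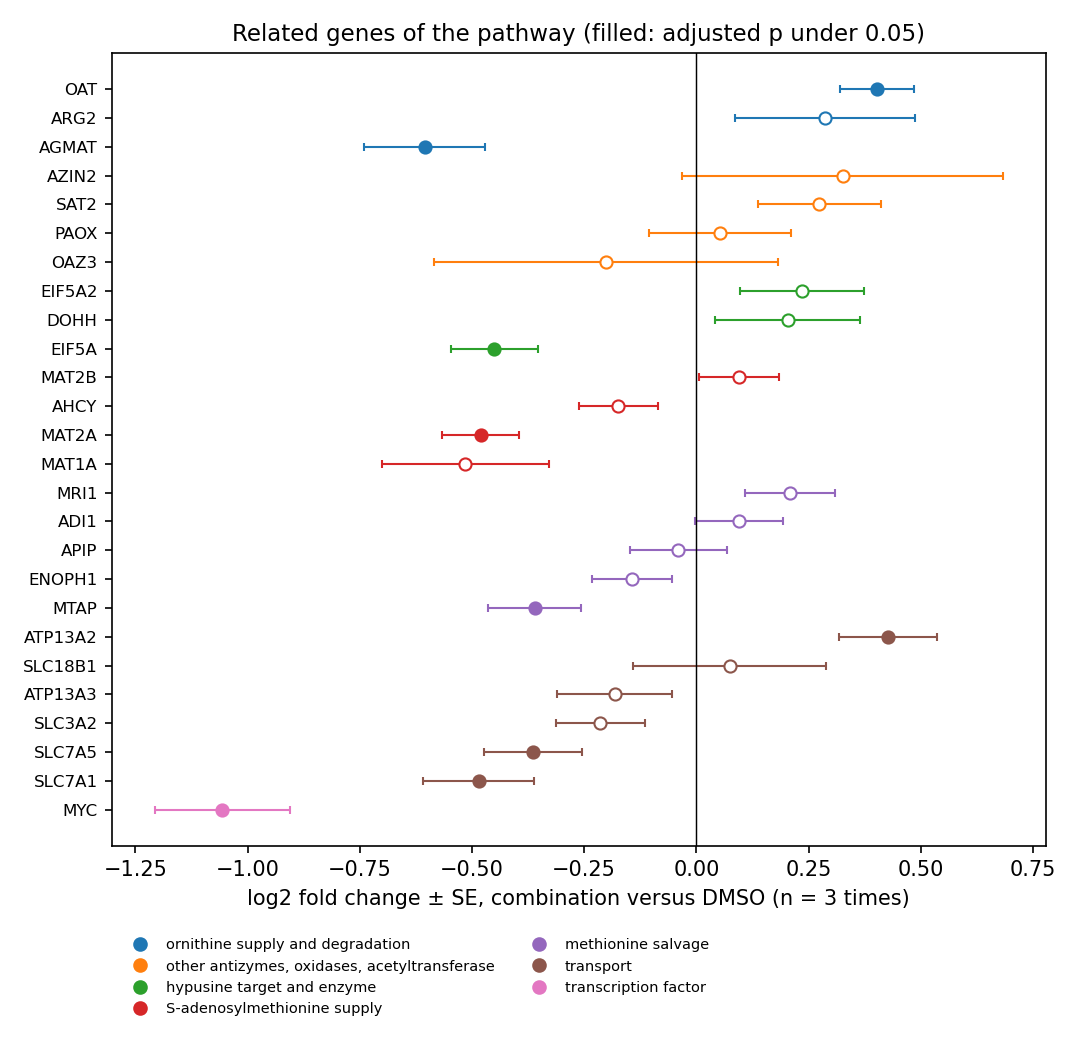
Log2 fold change with SE, combination against DMSO, for the 25 tested related genes and MYC, coloured by role, filled where the adjusted p is under 0.05. EIF5A, MAT2A, MTAP, SLC7A1, SLC7A5 and AGMAT are filled and negative, OAT and ATP13A2 filled and positive, and MYC is lowest at -1.06.

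MYC itself was at 196, 207 and 225 CPM in DMSO, at 111, 204 and 189 CPM with ibrutinib, at 165.5, 197 and 207.5 CPM with SPX5551 and at 64.5, 138 and 134 CPM in the combination. The combination was lowest at each time, a pattern that 7.55% of all tested genes shared on the scaled log2 CPM. MYC fell by 1.06 on the log2 scale (SE 0.15, adjusted p = 7.41e-04), and by 0.64 with ibrutinib exposure (adjusted p = 0.00476). With SPX5551 exposure MYC also passed as lower, and it passed there in 7 of 23 other settings. Its course over time ran against that of ODC1, since MYC was higher at 12 h than at 4 h (0.48, adjusted p = 0.00996). The part of MYC in the differences of the polyamine transcripts was not tested. With length and GC trends removed, the combination differed from DMSO by -0.52 in ODC1, -0.59 in SRM, -0.43 in SMS, -0.41 in AMD1 and 0.67 in SMOX, all 5 still past the threshold. Over 14316 genes the fold changes of this comparison correlated with exonic length at only 0.009. Where computed for other comparisons, that correlation ran from -0.35 (SPX5551 exposure) to 0.38 (ibrutinib against DMSO). The 5 values therefore say little about comparisons with a stronger trend.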

How the data were processed

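RNA of 12 REC1 libraries was measured, 4 treatments at 3 times. The authors deposited gene counts, and reads were aligned with BWA to hg38, per the submitters' processing notes. The sources used here do not name the counting tool, its annotation or its use of strand. The authors also deposited log2 CPM for 14767 genes, which served as an alternative only. Columns were assigned by their headers, which match the titles. Symbols came from GENCODE 29 and a gene name table and were found for 93.1% of identifiers.

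Counts were filtered with filterByExpr, scaled by TMM (factors 0.940 to 1.09) and tested with edgeR 4.0.16 in R 4.3.3 (quasi-likelihood test, terms for treatment and time, all 12 libraries, 6 residual degrees of freedom, Benjamini-Hochberg adjustment over 14412 genes, threshold 0.05). The common biological coefficient of variation was 0.101. Printed CPM are counts scaled to a library total of 1000000 without TMM, and log2 differences at 1 time use TMM with a prior count of 2. Both drugs' exposure terms, the product of ibrutinib exposure with time, and the interaction of both drugs were fitted in the same way. The product of SPX5551 exposure with time was not fitted. Tested on simulated data for the combination against DMSO (14412 genes, 200 changed), the fit recovered 90% of changes of 1 and 45% of changes of 0.5 on the log2 scale, and 4.93% of its calls were unchanged genes. Apart from the added changes, each simulated gene had 1 mean across libraries, and all genes shared the common coefficient of variation. Time differences and length trends were not simulated, so these rates may not hold for the real libraries.

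Alternatives were DESeq2 1.42.0, limma 3.58.1 on the deposited log2 CPM, other scalings, filters and terms, removal of length and GC trends, and each library and time left out. All 10 transcripts are named by rule, and related genes where they passed or alone fill a role. The transcripts and lists were chosen with earlier results of these data known. Intervals at 1 time (95%) cover counting error only.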

Additional observations from a re-analysis of the deposited data

How the results depend on the processing

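Apart from the descriptions' columns, the 16 calls on the 10 transcripts were recomputed 361 times under 24 settings: 304 kept their call, 57 missed the threshold and none changed sign. Of 1729 recomputations of values that had not passed, 33 passed. In the combination against DMSO the number of the 10 passing was 5, and 1 without the 4 h time point (ODC1), 1 without 8 h (SMS), 2 without 12 h (ODC1 and SMS) and 0 with no time term; leaving out single libraries gave 2 to 5, with 2 without the 4 h DMSO library (SRM and ODC1) and 2 without the 8 h DMSO library (ODC1 and SMS). Against SPX5551 it was 3, and 1 without 4 h, 1 without 12 h, 1 with both groups only, 0 with no time term, and 1 to 4 without single libraries, lowest without the 12 h combination library. Against ibrutinib it was 0, and 1 with DESeq2, 2 without the filter, 3 with length and GC trends removed, 2 without the ibrutinib library of 8 h and the SPX5551 library of 12 h, and 0 to 1 without single libraries. For ibrutinib exposure it was 3, and 5 with length and GC trends removed, 0 without 8 h, 0 without 12 h and 0 with no time term. For SPX5551 exposure it was 0, and 2 with DESeq2, 1 with library size alone, 2 with length and GC trends removed, and 0 to 1 without single libraries. Without the time term the spread holds the differences between times, and with 1 time or library fewer the fit has fewer samples. The number of the 25 related genes passing ran from 0 to 10 in the combination against DMSO. Of 150 differences at 1 time, 48 left their counting interval with library size alone and 0 with a prior count of 0.5. Depth limits SMOX, with 46 to 218 counts.

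With the columns named by the descriptions, all 11 treatment calls among the 16 reversed in sign. The 5 calls of 12 h against 4 h kept their values. The descriptions exchange treatments within a time, so those 5 could not change. The number of the 10 passing was 5 for ibrutinib against DMSO, 3 for the combination against DMSO and 0 against SPX5551. Ibrutinib against DMSO then gave 0.43 for SRM, 0.55 for ODC1, 0.37 for AMD1, -0.71 for SMOX and 0.45 for SMS. The combination against DMSO gave 0.45 for SRM, 0.61 for ODC1, 0.28 for AMD1, -0.47 for SMOX, 0.43 for SMS, 0.52 for AGMAT, -0.44 for ATP13A2, 0.36 for MAT2A, 0.88 for MYC, 0.18 for MTAP, -0.16 for OAT, 0.16 for SLC7A1, 0.14 for SLC7A5 and 0.49 for EIF5A. Against SPX5551 it gave 0.23 for SRM, 0.33 for ODC1, 0.18 for SMS, 0.18 for AGMAT, -0.14 for ATP13A2, 0.23 for MYC and 0.22 for EIF5A. Ibrutinib exposure gave 0.33 for SRM, 0.44 for ODC1, 0.31 for SMS, 0.39 for AGMAT, -0.28 for ATP13A2, 0.64 for MYC and 0.33 for EIF5A. SPX5551 exposure gave 0.17 for MAT2A, 0.24 for MYC, 0.0767 for MTAP, -0.0534 for OAT, 0.13 for SLC7A1 and 0.0894 for SLC7A5.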
